A study of Mus musculus with 15 samples.

Results

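The genes of glucose transport and glycolysis described here are 10 in number, all of them present in both deposited tables. They are the transporters Slc2a1 (GLUT1), Slc2a3 (GLUT3) and Slc2a6 (GLUT6), the hexokinases Hk1 and Hk2, the phosphofructokinases Pfkp (platelet type) and Pfkl (liver type), phosphoglycerate kinase Pgk1, pyruvate kinase Pkm and lactate dehydrogenase Ldha. They were chosen by symbol with earlier results of these data in view, so their levels and genotype differences are given as a description, with no test. The vehicle table lists 16470 genes and that of ibrutinib lists 16428, with 15869 in both. Glucose enters lymphocytes through facilitative transporters, is trapped by hexokinase, passes the committed step of glycolysis at phosphofructokinase and leaves the pathway as pyruvate or lactate. Resting B-cells keep this pathway low and raise it when the B-cell receptor (BCR) signals, and transcription factors such as MYC and HIF-1 are known to act on several of its genes.

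The libraries were made from splenic B-cells of leukemic mice on a C57Bl/6 background, isolated by mechanical disruption and cultured for 24 h. All mice carried Eμ-TCL1, a TCL1 oncogene that the immunoglobulin heavy-chain enhancer Eμ drives in B-cells, and the second genotype, Eμ-TCL1;p53R172H/+ (here p53-mutant), carried in addition 1 Trp53 allele with the R172H mutation. Vehicle (DMSO) was given to 3 Eμ-TCL1 samples (replicates 2, 3 and 4) and 5 p53-mutant samples (replicates 1 to 5), and 5 μM ibrutinib, an inhibitor of Bruton's tyrosine kinase, to 3 Eμ-TCL1 samples (replicates 1, 3 and 4) and 4 p53-mutant samples (replicates 1, 3, 4 and 5). The labels do not say whether each sample came from a separate mouse, nor the age of the mice, so error terms measure the spread between these samples. Values are normalized CPM (reads of a gene relative to the library's total), scaled separately in each table, with unknown sequencing depth.

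The label B-cell was checked against 11 B-cell marker genes such as Cd79a, Cd79b and Ms4a1, all detected in every library. Their summed level was between 3915 and 6526 in 5 of the 8 vehicle libraries, but 326 and 333 in p53-mutant replicates 2 and 1, and 678 in Eμ-TCL1 replicate 2. In ibrutinib it was between 1432 and 3890 in 4 libraries, 634 in p53-mutant replicate 3, 540 in Eμ-TCL1 replicate 1 and 87.2 in p53-mutant replicate 1. In p53-mutant replicates 1 and 2 with vehicle and replicate 1 with ibrutinib, the sum over 16 T-cell markers was between 3042 and 5296, against at most 862 in the other vehicle libraries. Those 3 libraries are called T-cell-rich, although Cd4 was 1.5 to 4.4 in them and 3 to 43.7 in the other 12. Genes listed as natural killer cell markers summed to between 292 and 725 in them, against at most 85.3 in the other 12. Eomes, Prf1 and Nkg7 made up most of that sum. Ncr1 was 0 in all 3 (at most 0.9 elsewhere) and Klrb1c 0.9 to 2.1 (at most 2.7 elsewhere), so natural killer cells are not read from it. In Eμ-TCL1 replicate 2 with vehicle and replicate 1 with ibrutinib, the 16 detected granulocyte and monocyte markers summed to 39393 and 30905, and the 10 detected erythroid markers to 18185 and 15664. Outside these 2 libraries the highest myeloid sum was 1582 and the highest erythroid sum was 295. They are called granulocyte- and erythroid-rich. The p53-mutant library 3 with ibrutinib had a T-cell sum of 1838 and that myeloid sum of 1582, and is called mixed. The other 9 libraries are called B-cell-rich, although in ibrutinib the B-cell sum was lower in the p53-mutant ones (1432 and 1703) than in the Eμ-TCL1 ones (2928 and 3890), and the T-cell sum higher (946 and 1276 against 262 and 832). In such bulk samples fewer cells of a type and less RNA per cell cannot be told apart.

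**Figure D1:**
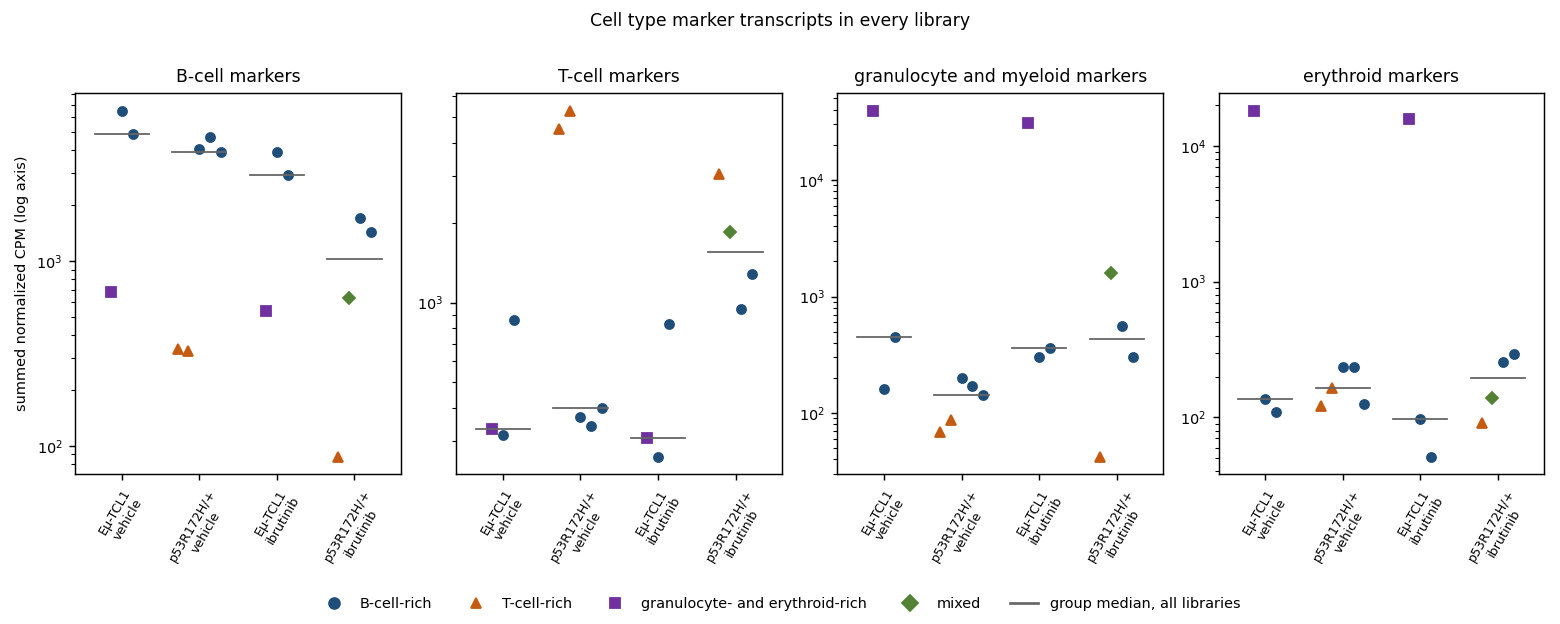
Summed normalized CPM (log axis) of B-cell, T-cell, granulocyte and myeloid, and erythroid marker genes in each of the 15 libraries, with the symbol giving the kind of library and the gray line the group median. The 2 granulocyte- and erythroid-rich libraries are both Eμ-TCL1 and the 3 T-cell-rich libraries are all p53-mutant, so cell content and genotype move together.

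Sex also moved with genotype. Ddx3y, a Y-linked gene, was at 0 in all 6 Eμ-TCL1 libraries, in which Xist, the transcript of the inactive X chromosome, was between 868.7 and 1992, whereas 6 of the 9 p53-mutant libraries had Ddx3y between 75.1 and 177.3. Genotype and sex cannot be told apart in full, and Pgk1 lies on the X chromosome.

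The genes lie on 8 chromosomes of GRCm38, with coordinates from GENCODE M21: Slc2a1 at chr4:119108711-119137983, Slc2a3 at chr6:122727809-122801640, Slc2a6 at chr2:27021363-27027998, Hk1 at chr10:62268855-62379908, Hk2 at chr6:82725025-82774454, Pfkl at chr10:77986947-78010083, Pfkp at chr13:6579768-6648777, Pgk1 at chrX:106187100-106203699, Pkm at chr9:59656368-59679375 and Ldha at chr7:46841475-46855627. RefSeq promoter windows (GRCm38.p6, 250 bases before to 50 after a start) were found for 9 of the 10 genes, in 12 windows. They were searched on both strands for ACGTG, the core of sites that HIF-1 binds, and for CACGTG, the canonical E-box of MYC and its partners, which holds an ACGTG on each strand and so also counts as 2 cores. ACGTG was present in 6 of the 12 windows, from 6 genes, and in 19.6% of all 32851 windows. CACGTG was present in 1 of the 12, of Ldha, and in 7.15% of all windows. The GC box GGGCGG was present in 8 of the 12, from 8 genes, and in 35.7% of all windows. A match is a description of the letters and not of binding.

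The bases before the start are printed for 4 genes, leaving out annotated exon bases. These are the 3 genes whose printed bases hold the motif and, for contrast, Pfkp, whose p53-mutant vehicle values varied little. Capitals mark ACGTG or its reverse complement CACGT. They are Ldha (chr7:46845554-46845803, plus strand, the first of its 2 windows), Hk2 (chr6:82774455-82774704, minus strand), Pgk1 (chrX:106186850-106187099, plus strand) and Pfkp (chr13:6648778-6649021, minus strand), each written 5′ to 3′ in the direction of its gene.
Ldha: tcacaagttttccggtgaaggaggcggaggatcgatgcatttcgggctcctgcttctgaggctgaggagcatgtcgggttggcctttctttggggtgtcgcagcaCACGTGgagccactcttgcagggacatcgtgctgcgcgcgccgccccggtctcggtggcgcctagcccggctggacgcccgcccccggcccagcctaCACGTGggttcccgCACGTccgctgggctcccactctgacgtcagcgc
Hk2: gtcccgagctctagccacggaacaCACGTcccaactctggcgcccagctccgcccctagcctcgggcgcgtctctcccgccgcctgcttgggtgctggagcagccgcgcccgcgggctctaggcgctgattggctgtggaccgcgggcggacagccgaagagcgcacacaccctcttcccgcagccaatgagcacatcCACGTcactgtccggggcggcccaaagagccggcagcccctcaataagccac
Pgk1: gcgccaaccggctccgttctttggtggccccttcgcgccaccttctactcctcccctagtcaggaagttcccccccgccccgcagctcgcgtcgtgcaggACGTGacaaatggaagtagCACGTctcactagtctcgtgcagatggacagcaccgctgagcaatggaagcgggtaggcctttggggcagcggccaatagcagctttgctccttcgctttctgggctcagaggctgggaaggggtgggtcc
Pfkp: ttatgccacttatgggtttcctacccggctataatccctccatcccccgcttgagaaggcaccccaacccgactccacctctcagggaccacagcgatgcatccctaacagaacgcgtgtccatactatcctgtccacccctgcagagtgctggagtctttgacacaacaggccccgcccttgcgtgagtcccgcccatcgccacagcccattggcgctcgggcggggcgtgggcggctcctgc
The Ldha stretch holds 5 matches, from 2 complete E-boxes and 1 further core, Hk2 and Pgk1 hold 2 each, and Pfkp holds none.

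Of the 10 genes, Pfkp, Slc2a1 and Ldha were higher in every p53-mutant than in every Eμ-TCL1 library with vehicle, and Slc2a6 was lower. These are 3 genes without overlap in the higher direction and 1 in the lower. Over all genes of the vehicle table, 3.52% lay without overlap in the higher and 2.93% in the lower direction, and limma called 0.0121% (2 of 16470 genes, the immunoglobulin variable genes Igkv12-89 and Ighv1-55) at an adjusted p under 0.05. With ibrutinib no gene of the 10 lay wholly higher in p53-mutant libraries (6.68% of all genes did), and Hk2 and Slc2a6 lay wholly lower (5.97%). limma called 0% there, 0 of 16428 genes, with 1973 (12%) at an unadjusted p under 0.05. The members were chosen with these contrasts in view, so nothing is read from these counts.

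Glucose transporters. Slc2a1 encodes the basal glucose transporter of most cells. With vehicle its values were 39.9, 32.6, 50.6, 58.1 and 75.4 in p53-mutant replicates 1 to 5 and 19.1, 29.1 and 27.3 in Eμ-TCL1 replicates 2, 3 and 4. With ibrutinib they were 29.9, 28.4, 32.2 and 36.4 in p53-mutant replicates 1, 3, 4 and 5 and 16.4, 29.6 and 18.6 in Eμ-TCL1 replicates 1, 3 and 4. The vehicle groups did not overlap, and the ibrutinib groups touched through Eμ-TCL1 replicate 3. The group means were 51.3 ± 16.6 (SD, n = 5) against 25.2 ± 5.33 (SD, n = 3) with vehicle, a log2 difference of 0.96 (standard error 0.30), p53-mutant relative to Eμ-TCL1, on the log2(value + 1) scale used throughout. In the B-cell-rich libraries alone that difference was 1.08 (standard error 0.21). With ibrutinib it was 0.58 (standard error 0.23) in all libraries and 0.52 (standard error 0.28) in the B-cell-rich ones. The sign of the Slc2a1 difference was positive under all 17 settings fitted in vehicle and all 16 in ibrutinib, between 0.78 and 1.26 and between 0.41 and 0.82.

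Slc2a3 encodes a high-affinity transporter that is abundant in myeloid cells. Its vehicle values were 43.7, 37.8, 28.8, 29.6 and 29.6 in p53-mutant replicates 1 to 5, and 216.5, 12 and 42.3 in Eμ-TCL1 replicates 2, 3 and 4. Its ibrutinib values were 31.7, 44, 23.6 and 24.9 in p53-mutant replicates 1, 3, 4 and 5, and 224.3, 5.9 and 29.6 in Eμ-TCL1 replicates 1, 3 and 4. The granulocyte- and erythroid-rich library of each table held the highest value, and the p53-mutant range lay inside the Eμ-TCL1 range both times. The log2 difference was -0.53 (standard error 0.75) with vehicle and -0.22 (standard error 1.03) with ibrutinib, and it had the other sign in the B-cell-rich libraries, 0.35 (standard error 0.54) and 0.80 (standard error 0.80), so no direction is given for Slc2a3.

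Slc2a6 encodes a transporter of lysosomal membranes that is expressed in leukocytes. With vehicle it was 1.4, 0.5, 11, 3.8 and 12.9 in p53-mutant replicates 1 to 5 and 23.9, 25.3 and 29.4 in Eμ-TCL1 replicates 2, 3 and 4. With ibrutinib it was 0, 0.9, 1.2 and 1.9 in p53-mutant replicates 1, 3, 4 and 5 and 21.9, 2.4 and 3.4 in Eμ-TCL1 replicates 1, 3 and 4. Every p53-mutant library was below every Eμ-TCL1 library in both tables. The log2 difference was -2.46 (standard error 0.74) with vehicle and -1.91 (standard error 0.70) with ibrutinib, and in the B-cell-rich libraries -1.61 (standard error 0.53) and -0.61 (standard error 0.27). The lowest vehicle values were those of the T-cell-rich replicates 1 and 2. The highest ibrutinib value was that of the granulocyte- and erythroid-rich Eμ-TCL1 replicate 1, and all other ibrutinib values were low, at most 3.4. The part of the cell content in these differences was not tested.

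**Figure D2:**
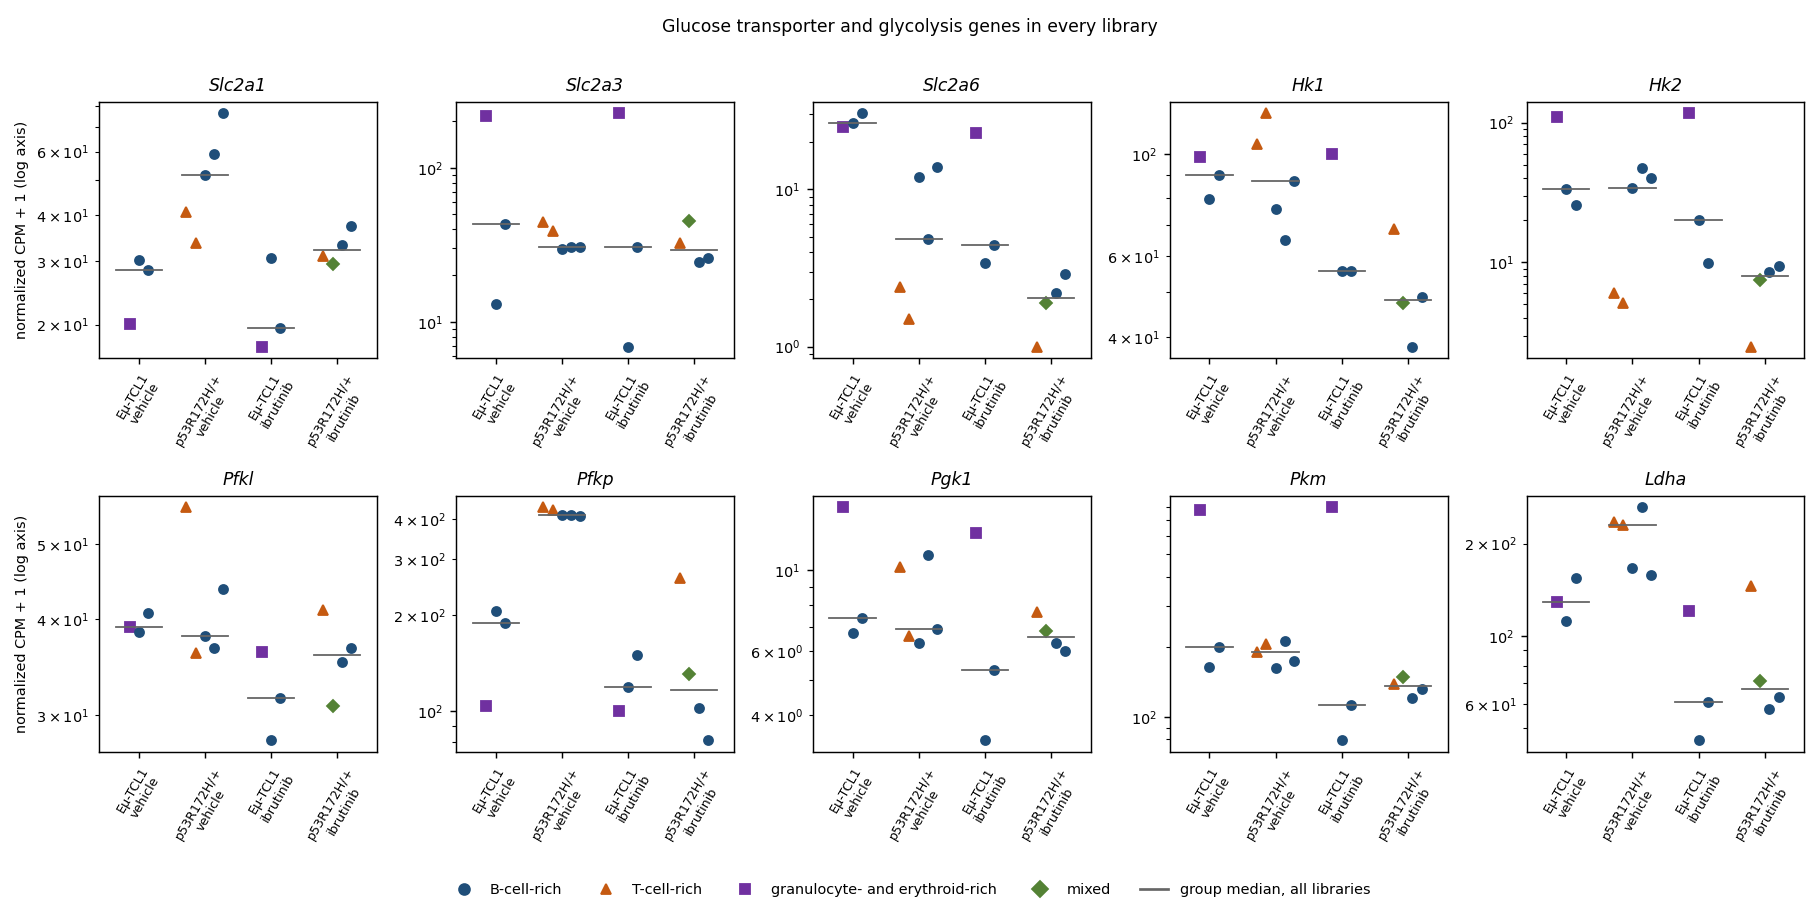
Normalized CPM plus 1 (log axis) of the 10 genes in each of the 15 libraries by genotype and treatment, with the symbol giving the kind of library and the gray line the group median. Pfkp is between 408.9 and 434.9 in all 5 p53-mutant vehicle libraries and at most 204.5 in Eμ-TCL1, whereas the highest Slc2a3, Hk2 and Pkm values are those of the granulocyte- and erythroid-rich libraries.

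Hexokinases. Hk1 encodes the constitutive hexokinase and Hk2 the inducible one that is raised in many tumors. Hk1 with vehicle was 104.1, 121.3, 74.8, 63.9 and 86.3 in p53-mutant replicates 1 to 5 and 97.4, 78.8 and 88.7 in Eμ-TCL1 replicates 2, 3 and 4, with complete overlap and a log2 difference of -0.00 (standard error 0.24). With ibrutinib it was 67.6, 46.5, 37.1 and 47.8 in p53-mutant replicates 1, 3, 4 and 5 and 98.9, 54.5 and 54.5 in Eμ-TCL1 replicates 1, 3 and 4, a difference of -0.44 (standard error 0.29). Hk1 was the steadier of the hexokinases, with a highest value under 3 times the lowest in either table.

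Hk2 with vehicle was 5, 4.1, 33.1, 46.1 and 38.9 in p53-mutant replicates 1 to 5 and 108.8, 32.4 and 24.7 in Eμ-TCL1 replicates 2, 3 and 4. The T-cell-rich replicates 1 and 2 held the lowest values and the granulocyte- and erythroid-rich library the highest. Over all vehicle libraries the log2 difference was -1.33 (standard error 0.90), but in the B-cell-rich libraries all 3 p53-mutant values were above both Eμ-TCL1 values and the difference was 0.45 (standard error 0.21). With ibrutinib Hk2 was 1.5, 6.5, 7.5 and 8.4 in p53-mutant replicates 1, 3, 4 and 5 and 115.2, 19 and 8.9 in Eμ-TCL1 replicates 1, 3 and 4. The ibrutinib groups did not overlap, with a difference of -2.19 (standard error 0.87), or -0.65 (standard error 0.42) in the B-cell-rich libraries. The sign in vehicle thus turned with the libraries taken, while in ibrutinib it was negative under all 16 settings, between -2.95 and -0.65.

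Compared per kilobase of exon within each library, which does not depend on the scaling of the table, the Hk2 to Hk1 ratio was 0.633 to 1.03 in the 3 B-cell-rich p53-mutant vehicle libraries and 0.398 and 0.588 in the Eμ-TCL1 ones. With ibrutinib it was 0.251 and 0.289 in p53-mutant and 0.233 and 0.498 in Eμ-TCL1. It was 0.0317 to 0.0687 in the 3 T-cell-rich libraries, and 1.6 and 1.67 in the granulocyte- and erythroid-rich ones. The B-cell-rich libraries therefore lay between the T-cell-rich and the granulocyte-rich libraries for this ratio.

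**Figure D3:**
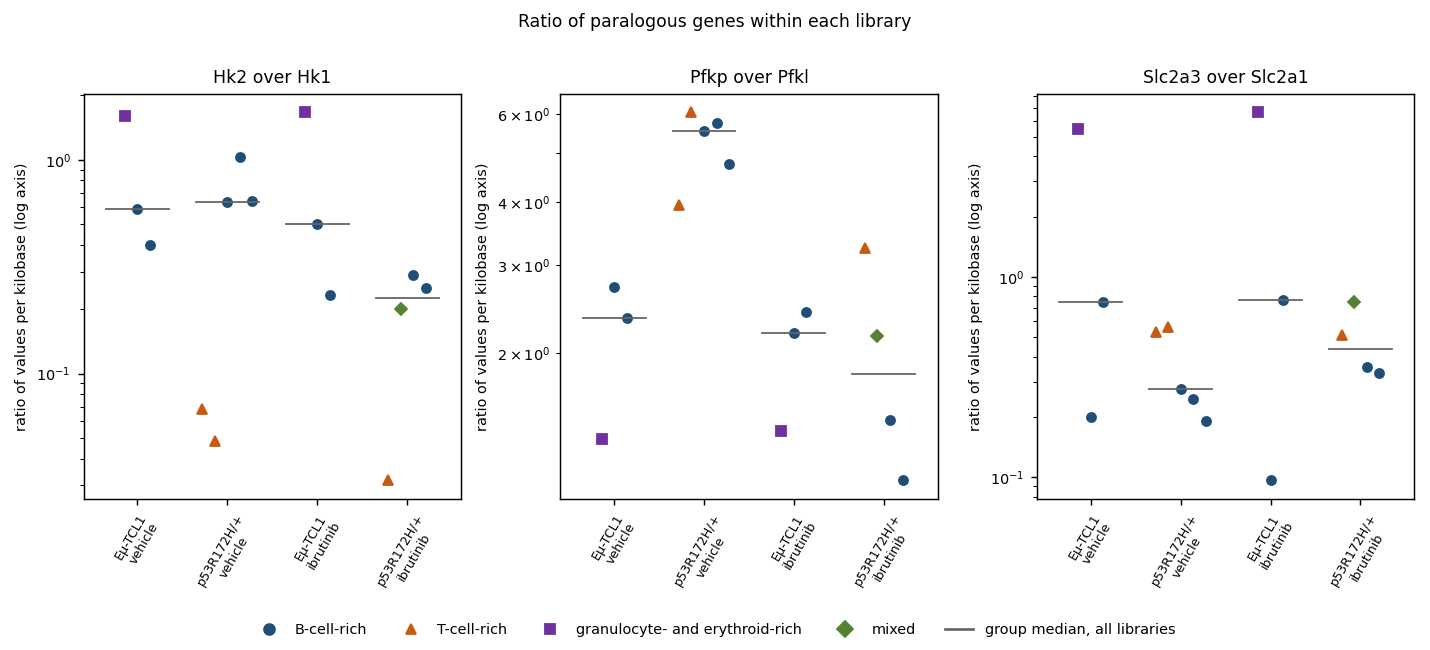
Ratio of the levels per kilobase (log axis) of Hk2 to Hk1, Pfkp to Pfkl and Slc2a3 to Slc2a1 within each library, with symbols for the kind of library and gray lines for group medians. The Pfkp to Pfkl ratio is 3.95 to 6.04 in all p53-mutant vehicle libraries and 1.35 to 2.72 in the Eμ-TCL1 vehicle libraries.

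Phosphofructokinases. Pfkp varied little between the p53-mutant vehicle libraries and more between the Eμ-TCL1 ones. Its values were 434.9, 425.3, 412.1, 412.2 and 408.9 in p53-mutant replicates 1 to 5 and 103, 204.5 and 187.3 in Eμ-TCL1 replicates 2, 3 and 4. The group means were 418.7 ± 11 (SD, n = 5) and 165 ± 54.3 (SD, n = 3), and the lowest p53-mutant library was above the highest Eμ-TCL1 library. The T-cell-rich p53-mutant libraries held 434.9 and 425.3 and the B-cell-rich ones 408.9 to 412.2, and the part of the cell content in the genotype difference was not tested. The log2 difference was 1.40 (standard error 0.26), 1.07 (standard error 0.13) in the B-cell-rich libraries, and between 1.07 and 1.58 under all 17 settings.

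With ibrutinib Pfkp was 260.7, 129.5, 100.9 and 79.8 in p53-mutant replicates 1, 3, 4 and 5 and 98.7, 118.3 and 148.8 in Eμ-TCL1 replicates 1, 3 and 4. The groups overlapped, the highest value was that of the T-cell-rich replicate 1, and the difference was 0.10 (standard error 0.40). In the B-cell-rich libraries both p53-mutant values were below both Eμ-TCL1 values, a difference of -0.56 (standard error 0.21), so the sign in ibrutinib turned with the libraries taken. The difference between the genotype differences (ibrutinib minus vehicle, log2) was -1.30 (standard error 0.47) for Pfkp in all libraries and -1.63 (standard error 0.25) in the B-cell-rich ones, and it was negative under all 23 settings, between -1.64 and -0.998. Over all 15869 genes limma called 0% (0 genes) for this interaction, with 83 (0.523%) at an unadjusted p under 0.05.

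Pfkl encodes the isoform typical of liver. It was 54.8, 35.1, 37, 35.7 and 42.7 in p53-mutant replicates 1 to 5 and 38, 37.5 and 39.7 in Eμ-TCL1 replicates 2, 3 and 4 with vehicle. With ibrutinib it was 40, 29.8, 34.1 and 35.6 in p53-mutant replicates 1, 3, 4 and 5 and 35.2, 26.8 and 30.6 in Eμ-TCL1 replicates 1, 3 and 4. The ranges overlapped in both tables, with log2 differences of 0.07 (standard error 0.21) and 0.17 (standard error 0.17). The Pfkp to Pfkl ratio per kilobase in the B-cell-rich libraries was 4.77 to 5.75 in p53-mutant and 2.35 and 2.72 in Eμ-TCL1 with vehicle, and 1.12 and 1.47 in p53-mutant and 2.2 and 2.42 in Eμ-TCL1 with ibrutinib. In these libraries the order of the genotypes for this ratio was thus opposite in the 2 treatments.

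Lower glycolysis. Ldha encodes the muscle-type subunit of lactate dehydrogenase, which turns pyruvate into lactate. It was 234, 229.4, 165.5, 261.6 and 156.5 in p53-mutant replicates 1 to 5 and 127.8, 110.6 and 153.7 in Eμ-TCL1 replicates 2, 3 and 4 with vehicle. The groups did not overlap, but the lowest p53-mutant value (156.5) was close to the highest Eμ-TCL1 value (153.7). The log2 difference was 0.66 (standard error 0.24), and 0.53 (standard error 0.30) in the B-cell-rich libraries. With ibrutinib Ldha was 144.5, 70.1, 56.9 and 62.4 in p53-mutant replicates 1, 3, 4 and 5 and 119.5, 44.6 and 59.9 in Eμ-TCL1 replicates 1, 3 and 4, with overlap and a difference of 0.18 (standard error 0.43). The highest ibrutinib values were those of the T-cell-rich and the granulocyte- and erythroid-rich library.

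Pkm encodes the pyruvate kinase M1 and M2 isoforms, which the table does not separate. It was 189.7, 204.5, 162, 211.1 and 172.2 in p53-mutant replicates 1 to 5 and 770.3, 162.8 and 197.8 in Eμ-TCL1 replicates 2, 3 and 4 with vehicle. It was 137.7, 147.8, 119.9 and 131 in p53-mutant replicates 1, 3, 4 and 5 and 793.7, 78.2 and 111.6 in Eμ-TCL1 replicates 1, 3 and 4 with ibrutinib. The granulocyte- and erythroid-rich libraries stood far above all others. The log2 difference was -0.64 (standard error 0.47) and -0.51 (standard error 0.73) in all libraries, and 0.01 (standard error 0.18) and 0.42 (standard error 0.23) in the B-cell-rich ones, so it had no stable sign.

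Pgk1, the X-linked gene of the first ATP-forming step, was low in every library. It was 9.2, 5.6, 5.3, 10 and 5.9 in p53-mutant replicates 1 to 5 and 13.9, 5.7 and 6.4 in Eμ-TCL1 replicates 2, 3 and 4 with vehicle, and 6.7, 5.8, 5.3 and 5 in p53-mutant replicates 1, 3, 4 and 5 and 11.7, 2.4 and 4.3 in Eμ-TCL1 replicates 1, 3 and 4 with ibrutinib. The ranges overlapped, and the differences were -0.18 (standard error 0.37) and 0.12 (standard error 0.44). The levels of Pgk1, Pkm and Ldha are uncertain because near-identical copies exist: at 90% identity or more over at least 200 bases, the coding sequence matched 4 pseudogenes for Pgk1, 6 for Pkm and 12 for Ldha, and 0 for each of the other 7 genes. How reads shared with such copies were counted is not given in the sources used here.

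**Figure D4:**
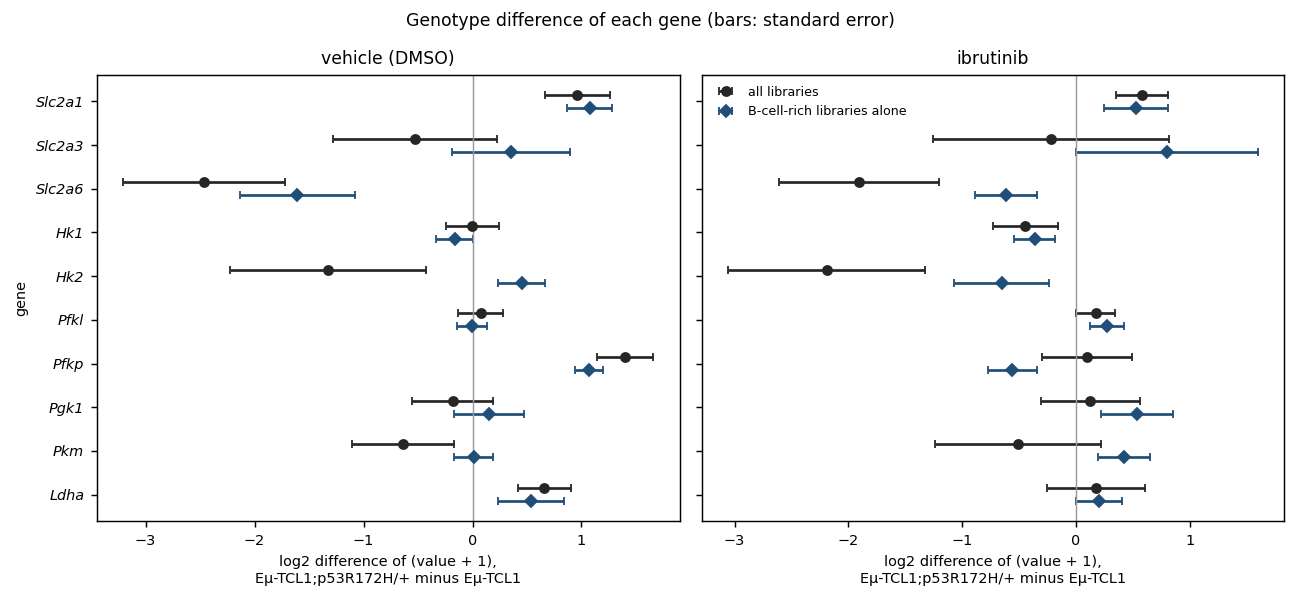
Log2 difference of value plus 1 between p53-mutant and Eμ-TCL1 libraries for each of the 10 genes with vehicle and with ibrutinib, with bars for the standard error, in all libraries and in the B-cell-rich libraries alone. Slc2a1, Pfkp and Ldha lie above 0 with vehicle in both sets of libraries and Slc2a6 below 0, whereas Hk2, Slc2a3, Pkm, Pgk1 and Pfkl change sign between the sets with vehicle.

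Over the 10 genes the median log2 difference was -0.09 with vehicle (4 higher and 6 lower), beside 0.04 over all genes, of which 53.3% were higher. With ibrutinib it was -0.06 (5 higher and 5 lower), beside -0.05 over all genes, of which 45.6% were higher. For the interaction it was -0.14 (5 positive), beside -0.07 over all genes, of which 40.9% were positive. In the B-cell-rich libraries it was 0.25 with vehicle (7 higher) and 0.24 with ibrutinib (6 higher), beside 0.00 and -0.02 over all genes. There 5 of 10 genes did not overlap between genotypes with vehicle (Hk2, Ldha, Pfkp and Slc2a1 higher, Slc2a6 lower) and 8 of 10 with ibrutinib (Pfkl, Pgk1, Pkm and Slc2a1 higher, Hk1, Hk2, Pfkp and Slc2a6 lower). With so few libraries 32.7% and 42.7% of all genes also lay without overlap in either direction. Among genes compared per kilobase of exon in the B-cell-rich vehicle libraries, Ldha (33.4 to 79) and Pkm (32.4 to 42.2) were the highest. The lowest were Pgk1 (2.36 to 4.46), Slc2a3 (1.66 to 5.84) and Slc2a6 (1.18 to 9.16). Lengths were those of all annotated exons of a gene joined, 13401 bases for Pfkp, 7245 for Slc2a3, 3310 for Ldha and 5001 for Pkm. Their coding lengths were 2352, 1479, 1083 and 1593 bases, so this order depends on the length used. The levels of Ldha, Pkm and Pgk1 are also uncertain through their pseudogene copies.

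The order of the 4 groups by median, over all libraries, put p53-mutant vehicle first for Slc2a1, Hk2, Pfkp and Ldha and Eμ-TCL1 vehicle first for Slc2a3, Slc2a6, Hk1, Pfkl, Pkm and Pgk1, and an ibrutinib group last for all 10. The median gene of a library (defined below) was also lower with ibrutinib, 23.9 to 27.8 against 32.6 to 35.5. The share of all genes with an ibrutinib group last was not computed, so nothing is read from that count. For Pfkp the medians were 412.2 with vehicle in p53-mutant, 187.3 with vehicle in Eμ-TCL1, 118.3 with ibrutinib in Eμ-TCL1 and 115.2 with ibrutinib in p53-mutant, and the lower 3 overlapped with their neighbors. For Ldha they were 229.4, 127.8, 66.3 (p53-mutant, ibrutinib) and 59.9 (Eμ-TCL1, ibrutinib), again with the p53-mutant vehicle group apart and the lower 3 overlapping. For Slc2a6 they were 25.3 in Eμ-TCL1 and 3.8 in p53-mutant with vehicle, and 3.4 and 1.05 with ibrutinib, and the middle groups overlapped. For Hk2 the p53-mutant ibrutinib group (median 7) came last, apart from its neighbor, Eμ-TCL1 with ibrutinib (median 19), but overlapping with the p53-mutant vehicle group through the T-cell-rich replicates 1 and 2. For Pkm the overlapping vehicle groups (197.8 and 189.7) came before the overlapping ibrutinib groups (134.3 and 111.6). For Slc2a1, Slc2a3, Hk1, Pfkl and Pgk1 all neighbors in the order overlapped. Since each table has its own scaling, these levels are set side by side and were not tested across treatments.

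To set the treatments side by side on 1 scale, each value was divided by the median, in its library, of 10119 genes with a mean of at least 5 in both tables. That median was 32.6 to 35.5 with vehicle and 23.9 to 27.8 with ibrutinib. In the B-cell-rich p53-mutant libraries Pfkp was 11.6 to 12.4 times the median gene with vehicle and 3.28 and 4.22 times with ibrutinib, Hk2 0.932 to 1.38 and 0.314 and 0.346, and Ldha 4.6 to 7.86 and 2.38 and 2.57. The ranges of these 3 genes did not overlap between treatments. In the T-cell-rich p53-mutant ibrutinib library Pfkp was 10.1 times the median gene. In the B-cell-rich Eμ-TCL1 libraries Ldha was 3.16 and 4.56 with vehicle and 1.76 and 2.31 with ibrutinib, without overlap, while Pfkp (5.56 and 5.84 against 4.66 and 5.75) and Hk2 (0.733 and 0.926 against 0.344 and 0.748) overlapped. Slc2a6 was lower with ibrutinib in both genotypes, 0.723 and 0.872 against 0.0945 and 0.131 in Eμ-TCL1 and 0.114 to 0.379 against 0.0502 and 0.0782 in p53-mutant. Hk1 (2.25 and 2.63 against 2.1 and 2.15) and Pkm (4.65 and 5.87 against 3.08 and 4.31) were lower with ibrutinib in Eμ-TCL1 and overlapped in p53-mutant. Slc2a3 (0.811 to 0.889 against 0.987 and 1.03) and Pfkl (1.04 to 1.26 against 1.43 and 1.47) were higher with ibrutinib in p53-mutant and overlapped in Eμ-TCL1. Slc2a1 and Pgk1 overlapped between treatments in both genotypes. Without overlap, 4 of the 10 genes were thus lower and 0 higher with ibrutinib in Eμ-TCL1, where 20.8% of all genes were lower and 28.6% higher. In p53-mutant 4 were lower and 2 higher, beside 20.7% and 30.7% of all genes. The B-cell marker sum was also lower with ibrutinib in these libraries. In the p53-mutant ones the T-cell marker sum was higher, 946 and 1276 with ibrutinib against 343 to 401 with vehicle. In the Eμ-TCL1 ones it was 262 and 832 against 316 and 862. The part of the cell content in these differences was not tested.

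**Figure D5:**
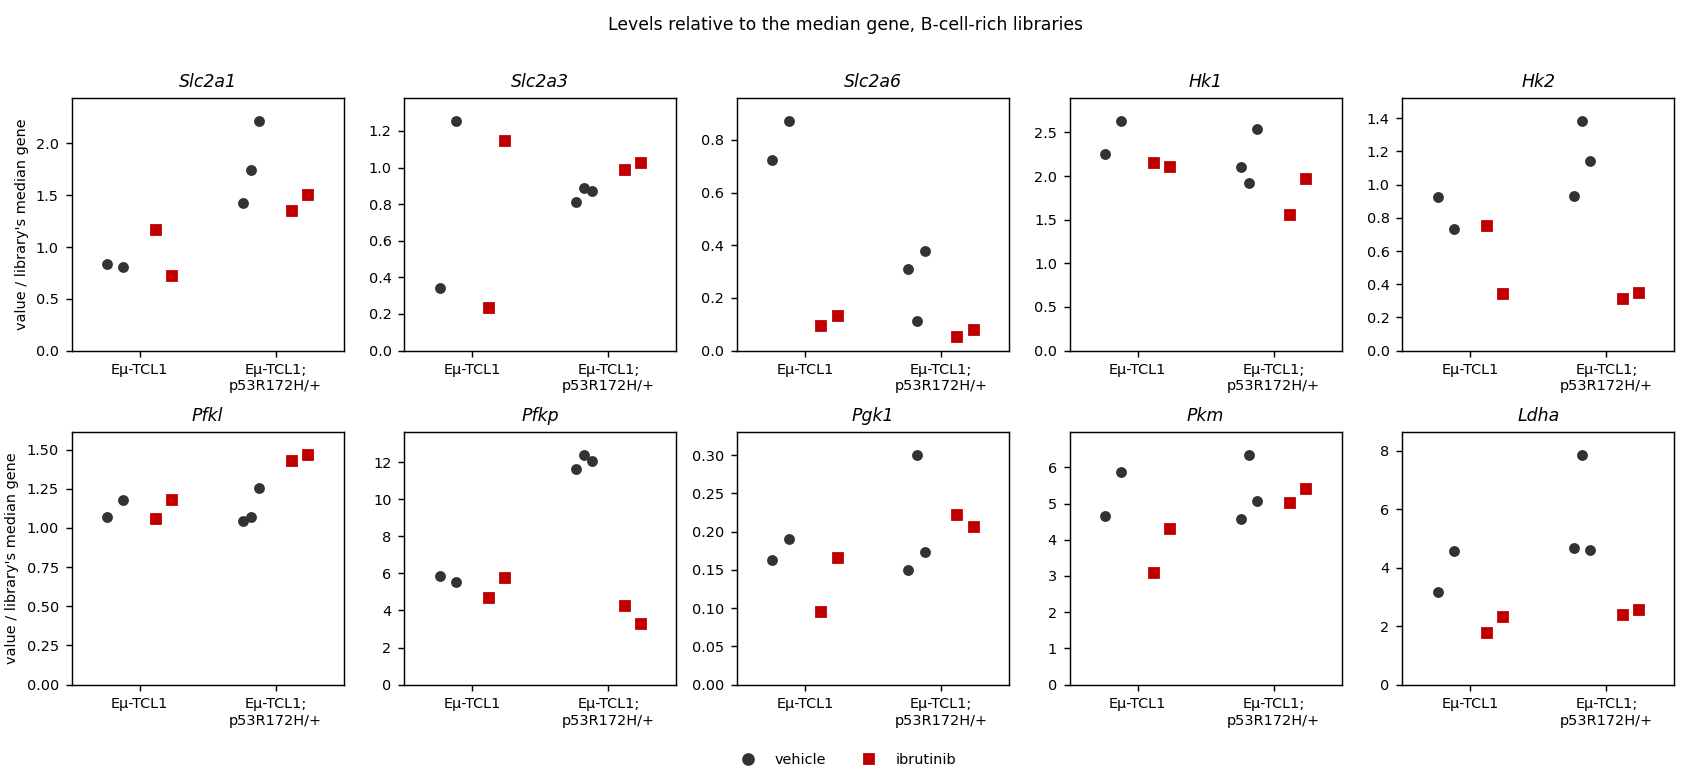
Level of each gene divided by the median gene of its library, in the 9 B-cell-rich libraries, with vehicle as gray circles and ibrutinib as red squares for each genotype. Pfkp is between 11.6 and 12.4 with vehicle and 3.28 and 4.22 with ibrutinib in p53-mutant libraries, while Ldha and Slc2a6 lie lower with ibrutinib in both genotypes.

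The genes whose pattern was most like the mean of the 10 genes, by Pearson's r over the 15 libraries after centring within each table, were an unnamed gene (ENSMUSG00000060214, r = 0.963), Tkt (r = 0.947), Ap2a2 (r = 0.934), Sephs2 (r = 0.933) and Hmgn2 (r = 0.931). Tkt encodes transketolase of the pentose phosphate pathway. The mean of the 10 genes was highest in the granulocyte- and erythroid-rich libraries, 0.58 and 1.28 above its table mean on the log2 scale, and at most 0.16 in any other, so these 2 libraries shape the likeness, and within the 9 B-cell-rich libraries r was 0.396 to 0.77. Of the 10 genes, Pkm was closest to their own mean (r = 0.906), and Slc2a1 (r = -0.385) and Pfkp (r = -0.340) ran against it.

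The rest of the pathway was read from 7 lists with 131 genes, 115 of them measured with vehicle and 114 with ibrutinib. Adjusted p-values of these genes are from limma with Benjamini-Hochberg adjustment over all genes. None passed the adjusted threshold by limma in either table or for the interaction, and 8 with vehicle, 12 with ibrutinib and 1 for the interaction had an unadjusted p under 0.05, beside 8.17%, 12% and 0.523% of all genes.

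Of 20 measured other genes of glycolysis, 8 were higher and 12 lower with vehicle (median log2 difference -0.23) and 3 higher and 17 lower with ibrutinib (median -0.41), beside 10 lower of 20 with ibrutinib in the B-cell-rich libraries. Eno3, a muscle-type enolase, was 21.9, 22.2, 145.3, 95.7 and 116.4 in p53-mutant replicates 1 to 5 and 8.8, 25.1 and 17.8 in Eμ-TCL1 replicates 2, 3 and 4, a log2 difference of 1.87 (standard error 0.72, adjusted p = 0.571). With ibrutinib the difference was 0.82 (adjusted p = 0.332). Pfkfb4, which makes and removes the activator of phosphofructokinase, was 7.9, 6.8, 18.4, 21 and 21.2 against 106.6, 42.4 and 25.7, a difference of -1.78 (adjusted p = 0.503), and -1.91 (adjusted p = 0.30) with ibrutinib. All 5 p53-mutant vehicle libraries lay below all 3 Eμ-TCL1 libraries for Pfkfb4, beside 2.93% of all genes that lay lower without overlap. Hk3, a hexokinase of granulocytes, was 246.2 in the granulocyte- and erythroid-rich vehicle library and 0.8 to 2.7 in the other 7, and its difference was -2.57 (adjusted p = 0.638). Tpi1 had a difference of -0.76 (adjusted p = 0.40) with ibrutinib. In the B-cell-rich libraries that was -0.20, beside -0.89 for Pfkfb4 and 0.59 for Eno3 with ibrutinib. The vehicle differences there were -0.69 for Pfkfb4, -0.54 for Hk3 and 2.42 for Eno3.

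Of 9 measured other sugar and monocarboxylate carriers, 4 were higher and 5 lower with vehicle, and 2 and 6 of 8 with ibrutinib. Slc16a3, which exports lactate, was 73.1 in the granulocyte- and erythroid-rich vehicle library and 0.6 to 1.8 in the other 7, with a difference of -1.87 (adjusted p = 0.645). Slc2a9, a urate carrier, differed by -0.56 (adjusted p = 0.645) with vehicle and -0.83 (adjusted p = 0.354) with ibrutinib, and Bsg, a chaperone of lactate carriers, by 0.38 (adjusted p = 0.645) with vehicle. With ibrutinib Emb differed by 0.76 (adjusted p = 0.610) and the lactate carrier Slc16a1 by 0.62 (adjusted p = 0.637). Of 13 measured genes of pyruvate use, 8 were higher with vehicle and 5 with ibrutinib. Pdk1, a kinase that inhibits pyruvate dehydrogenase, was 186.1 and 172.5 in the T-cell-rich vehicle libraries, 40.8 to 62.9 in the B-cell-rich p53-mutant ones and 32.6, 35.8 and 56.7 in Eμ-TCL1, with differences of 1.09 (adjusted p = 0.636) and 1.05 (adjusted p = 0.341). Pdhb (0.44) and Mpc2 (-0.38) with vehicle and Pdp1 (0.50) and Dlat (-0.29) with ibrutinib did not pass either. In the B-cell-rich libraries Pdk1 differed by 0.25 with vehicle and 0.47 with ibrutinib, and Slc2a9 by -0.87 and -0.82. There Slc16a3 differed by -0.46 and Bsg by 0.57 with vehicle.

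In the pentose phosphate list 10 of 11 measured genes were lower in both tables (medians -0.57 and -0.68), against 7 of 11 lower in the B-cell-rich libraries of each table. Prps1, which makes phosphoribosyl pyrophosphate, was 21.5 to 25.9 in p53-mutant and 10.4, 17.2 and 18.1 in Eμ-TCL1 libraries with vehicle, a difference of 0.63 (adjusted p = 0.57), and 0.61 (adjusted p = 0.287) with ibrutinib. H6pd differed by -1.03 (adjusted p = 0.550) and -1.22 (adjusted p = 0.473), Taldo1 by -0.90 with vehicle and Rpe by -0.56 with ibrutinib. In the B-cell-rich libraries H6pd differed by -0.56 and -1.08, Prps1 by 0.40 and 0.51, Taldo1 by -0.11 and Rpe by -0.31. In the list of the tricarboxylic acid cycle, 15 of 18 genes were higher with vehicle (median 0.13) and 6 of 18 with ibrutinib (median -0.15), beside 53.3% and 45.6% of all genes. In the B-cell-rich libraries 11 of 18 were higher with vehicle (median 0.05) and 2 of 18 with ibrutinib (median -0.20). For the interaction 16 of 18 estimates were negative (median -0.39), with Mdh2 alone under an unadjusted p of 0.05. Over all genes that median was -0.07, and 40.9% were positive. Idh2, a mitochondrial isocitrate dehydrogenase, was 6.5, 11.3, 12 and 14.1 in p53-mutant and 24.6, 29 and 27.6 in Eμ-TCL1 libraries with ibrutinib. These groups did not overlap, beside 5.97% of all genes that lay lower without overlap. The Idh2 difference was -1.27 (standard error 0.26, adjusted p = 0.212 by limma) with ibrutinib and -0.69 (adjusted p = 0.608 by limma) with vehicle. Sdha (0.46) and Idh3b (0.50) with vehicle and Fh1 (-0.42) with ibrutinib did not pass. In the B-cell-rich libraries these 3 differences were 0.35, 0.20 and -0.28, and Idh2 differed by -1.06 with ibrutinib and -0.56 with vehicle.

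In the HIF list 11 of 22 genes were higher with vehicle and 14 of 22 with ibrutinib. The demethylase gene Kdm3a differed by 0.62 (adjusted p = 0.636) and 0.63 (adjusted p = 0.305), Hif1an, an inhibitor of HIF, by 0.44 and Bnip3l by -0.75 with vehicle, and Ero1l by -0.96 and Bhlhe40 by 0.78 with ibrutinib. In the B-cell-rich libraries Kdm3a differed by 0.44 and 0.39, Hif1an by 0.23, Bnip3l by -0.39, Ero1l by -0.63 and Bhlhe40 by 0.79. Among 22 regulators, 13 were higher with vehicle and 9 with ibrutinib. Myc, the growth-promoting transcription factor, was 92.2, 161.8, 165.2, 253 and 207.1 in p53-mutant replicates 1 to 5 and 17.2, 73.4 and 77.9 in Eμ-TCL1 replicates 2, 3 and 4 with vehicle. The groups did not overlap, and the difference was 1.82 (standard error 0.53, adjusted p = 0.473). In the B-cell-rich libraries it was 1.43 (standard error 0.21, adjusted p = 0.104). With ibrutinib Myc was 40.5, 19.5, 19 and 50.8 in p53-mutant and 18.4, 26 and 17 in Eμ-TCL1 libraries, with overlap and a difference of 0.54 (adjusted p = 0.580). Mnt, which opposes MYC at E-boxes, was also higher in every p53-mutant library in both tables, with differences of 0.70 (adjusted p = 0.451) and 0.59 (adjusted p = 0.319). Over all genes, 3.52% with vehicle and 6.68% with ibrutinib lay higher without overlap. Myc and Mnt were named for the low p-values in their list, so nothing is read from their lack of overlap. Akt2 differed by 0.36 with vehicle, and Mxd4 by -0.87 (adjusted p = 0.310) and Tsc2 by -0.55 with ibrutinib.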

How the data were processed

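RNA of cultured splenic B-cells was sequenced on an Illumina platform. Per the labels and methods, the authors aligned reads with TopHat2 2.0.12 (SAMtools 0.1.19) to GRCm38, counted them with HTSeq on GENCODE M2, removed genes under 0.5 CPM and scaled the rest in edgeR. What they deposited is a signal in CPM, scaled in each treatment's table on its own and rounded to 0.1. Whole reads were therefore not recovered, no count test was run, and depth and counting error are unknown. Column sums were 855661 to 1243999 (vehicle) and 756625 to 1359650 (ibrutinib).
The genotypes were compared inside a table by fitting log2(value + 1) of every gene in limma (version 3.58.1, R version 4.3.3) with a mean-variance trend. P-values were adjusted over all genes by the Benjamini-Hochberg method, and 0.05 was the limit for a call. The interaction used the genes in both tables. On simulated data with 200 genes of a mean of at least 5 changed by 2 on the log2 scale, 49.5% (vehicle, 16470 genes) and 62% (ibrutinib, 16428 genes) of them were called. Unchanged genes made up 5.71% and 7.46% of the calls. The simulated noise was drawn for each gene alone, so shifts of cell content shared by many genes were not simulated. Ibrutinib was not tested against vehicle because the tables were normalized separately. The members and lists were chosen with earlier results of these data known. Named beside the members were, per list and table, genes past the limit or else the 3 lowest p-values at a mean of at least 5, the 5 most alike genes, and markers. One gene that this rule names is not reported here. Exon lengths came from GENCODE M21, with all annotated exons of a gene joined. Promoters came from RefSeq, and copies were searched with BLAST 2.17.0. Plots used matplotlib 3.10.9 under Python 3.11.15. Alternatives were pseudocounts of 0.1 and 5, only genes with a mean of at least 5, quantile scaling, weights for sample quality (not for the interaction), the replicate number as a block, each sample left out, and sets of libraries by marker content.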

Additional observations from a re-analysis of the deposited data

Results flagged for a closer look

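In groups of 4 or 5 samples, a library whose gap to the next one took up more of the group's range than the 95% critical value of Dixon's test was noted for the 10 genes and the other named pathway genes. Of 86 groups looked at, 3 held such a library, and chance gives about 1 in 20. Ldha was 144.5 in the T-cell-rich p53-mutant replicate 1 with ibrutinib, against 56.9 to 70.1 in the other 3 p53-mutant libraries. Mnt was 61.7 in p53-mutant replicate 5 with vehicle, against 43.9 to 46.9 in the other 4. Ero1l was 48.6 in p53-mutant replicate 4 with vehicle, against 26.6 to 32 in the other 4. The groups of 3 Eμ-TCL1 libraries are too small for this rule.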

How the results depend on the processing

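With vehicle the number of all genes called (2) was 6 with a pseudocount of 5, 803 with sample quality weights, 1 without the T-cell-rich libraries and 12 in the B-cell-rich libraries alone. It ranged from 0 (without Eμ-TCL1 replicate 3) to 61 (without Eμ-TCL1 replicate 2) when 1 library was left out, and was 5 without p53-mutant replicate 4. With ibrutinib (0 called) it was 28 with sample quality weights, and ranged from 0 to 24 with 1 library left out (24 without Eμ-TCL1 replicate 1 and 5 without p53-mutant replicate 5). No alternative gave a call for the interaction by limma, with 32 to 1145 genes at an unadjusted p under 0.05. Of the pathway lists, 5 genes were called with vehicle under sample quality weights (Eno3, Mnt, Myc, Prps2 and Tktl1), 1 in the B-cell-rich libraries (Vegfa), and between 0 and 1 with 1 library left out in each table (Prps2, without the granulocyte- and erythroid-rich library). The median over the 10 genes was between -0.24 and 0.12 with vehicle and between -0.44 and 0.34 with ibrutinib when 1 library was left out, and 0.25 in the B-cell-rich vehicle libraries. The cause of these shifts was not tested.
Between genotypes the replicate numbers did not pair the samples, with correlations of same-numbered libraries of 0.0472 to 0.284 with vehicle and -0.198 to -0.0459 with ibrutinib. Between treatments within a genotype, 5 of 6 same-numbered libraries correlated at 0.752 to 0.838 and best with their own number, and p53-mutant replicate 3 did not (-0.113), so the pairing held for these 5 as a hint from the data only. With the replicate block 0 genes were called in each table and for the interaction. The interaction had 802 genes at an unadjusted p under 0.05 in place of 83, and its Pfkp estimate was -1.13 (standard error 0.45) in place of -1.30. Libraries without a same-numbered partner added nothing to that fit. It took the p53-mutant libraries numbered 3 as 1 pair, although Ddx3y was 0.1 with vehicle and 82.1 with ibrutinib. A fit without that pair was not run. The median over the 10 genes was -0.16 with vehicle and 0.01 with ibrutinib. The counting error of low values, such as Slc2a6 with ibrutinib, is not known. The sets of libraries in ibrutinib and for the interaction without mixed and granulocyte-rich libraries were chosen after seeing the data.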

Other observations

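Vegfa and Prps2, both in the pathway lists, fell outside the rule for named genes and were picked after their values were seen. Vegfa, which encodes a vascular growth factor and is a target of HIF-1, was 100.6, 97.8 and 137.9 in the B-cell-rich p53-mutant vehicle libraries and 5.9 and 7.3 in the B-cell-rich Eμ-TCL1 ones. It was 1.7 in each T-cell-rich vehicle library and 38.8 in the granulocyte- and erythroid-rich one. The log2 difference was 3.88 (standard error 0.21, adjusted p = 0.0348 by limma) in the B-cell-rich vehicle libraries and 0.94 (adjusted p = 0.843) in all of them. With ibrutinib Vegfa was 44.1 and 20.8 in the B-cell-rich p53-mutant libraries and 7.9 and 12 in the B-cell-rich Eμ-TCL1 ones. It was 0.4 in the T-cell-rich, 8 in the mixed and 36.4 in the granulocyte- and erythroid-rich ibrutinib library. Over all ibrutinib libraries the log2 difference was -0.63 (adjusted p = 0.825 by limma). Prps2, an isoform of phosphoribosyl pyrophosphate synthetase, was 93.1 to 122.2 in the p53-mutant vehicle libraries, 331.9 and 268.5 in the B-cell-rich Eμ-TCL1 ones and 40.9 in the granulocyte- and erythroid-rich one. Without that last library its log2 difference was -1.52 (adjusted p = 0.0241 by limma), and with it -0.57 (adjusted p = 0.748). Prps1 lay in the opposite direction, higher in every p53-mutant than in every Eμ-TCL1 library of both tables. Of all genes, 3.52% with vehicle and 6.68% with ibrutinib also lay higher without overlap.
The p53-mutant libraries numbered 3 differed in sex-linked transcripts between the tables. With vehicle Xist was 1491 and Ddx3y 0.1, and with ibrutinib Xist was 1 and Ddx3y 82.1. These 2 libraries were therefore not from 1 mouse, and they are the same-numbered pair that correlated at -0.113.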
